A study of Homo sapiens with 6 samples.

Results

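Hepatocytes take up and release bile acids, drugs and hormones through carriers of the solute carrier (SLC) families, and 9 of these carriers were described across 6 libraries of HepaRG cells. The members were picked by gene symbol, with no cutoff on a measured value. All 9 were found among the 58735 genes of the count table. SLC10A1 couples bile acid uptake to sodium. SLCO1B1, SLCO1B3 and SLCO2B1 are organic anion transporting polypeptides, SLC22A7 and SLC22A9 organic anion transporters and SLC22A3 an organic cation transporter. SLC51A and SLC51B encode the alpha and beta subunits of a bile acid exporter.

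Carriers of this kind sit mainly in the blood-facing membrane of hepatocytes. SLC10A1 and the SLCO1B proteins bring bile acids, bilirubin conjugates and statins into the cell, where they are metabolised and sent on into bile by ATP-driven pumps. The SLC51 pair lets bile acids leave by the blood side, and its genes are known targets of the bile acid receptor FXR, encoded by NR1H4. Inflammatory cytokines such as interleukin-6 are known to lower SLC10A1 and SLCO1B1 in cultured human hepatocytes.

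HepaRG is a human liver progenitor line that forms hepatocyte-like and biliary-like cells when kept in DMSO. For all 6 libraries, cells matured in 1.8% DMSO and carried siRNA for 48 h before a fatty acid load of 24 h, made of oleic acid (800 µM) with palmitic acid (400 µM). The siRNAs of the study were aimed at PTPRD, a receptor-type tyrosine phosphatase, and at STAT3, a transcription factor activated by interleukin-6 type cytokines. The libraries were labelled PTPF (n = 3) and STATF (n = 3). The labels do not spell these codes out, and control-siRNA libraries were not analysed here. Whether replicates came from separate cultures is not said, so the p-values reflect the spread among these libraries only, and that spread may be technical.

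Totals ran from 33225627 to 40796767 counts per library. STAT3 stood at 436, 437 and 457 CPM (counts scaled to library size by TMM) in the PTPF-labelled libraries, against 114, 132 and 113 CPM in the STATF-labelled libraries. The log2 fold change of STAT3, PTPF over STATF, was 1.89 (95% interval 1.76 to 2.02, edgeR adjusted p = 2.5e-18). PTPRD stood at 10.04, 12.8 and 11.7 CPM in the PTPF-labelled libraries, against 11.2, 12.2 and 11.1 CPM in the STATF-labelled libraries. Its log2 fold change was 0.00 (95% interval -0.19 to 0.19, edgeR adjusted p = 0.999). STAT3 was thus lower in the STATF-labelled libraries, as that label would have it, while PTPRD did not differ in the way the label PTPF would have it. Directions are therefore stated between labels, not between knockdowns. The hepatocyte marker albumin (ALB) averaged 12010 ± 797 CPM in the PTPF-labelled and 14870 ± 549 CPM in the STATF-labelled libraries (SD, n = 3 each). All 18 hepatocyte markers listed were tested.

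The bile acid importer SLC10A1 and the anion importer SLCO1B1 were lower in the PTPF-labelled libraries, and none of the 8 carriers that could be tested was higher. SLC10A1 was 2.74-fold and SLCO1B1 1.56-fold higher in the STATF-labelled libraries. The 6 others, SLCO1B3, SLCO2B1, SLC22A3, SLC22A7, SLC22A9 and SLC51A, did not pass the test, and SLC51B was below the filter on low counts. Across the 17844 genes tested with edgeR's quasi-likelihood test, 21.6% had an adjusted p under 0.05, made up of 11.6% lower and 10.1% higher in the PTPF-labelled libraries. The carriers' 2 of 8 is 25%, close to the first of these shares. The median log2 fold change was -0.22 over the 8 carriers and 0.00 over all genes tested. In 3 carriers the groups of libraries did not overlap, each time with the PTPF-labelled ones lower. Groups did not overlap in 35.7% of all genes tested, and the PTPF-labelled libraries were the lower ones in 18.4%.

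**Figure D1:**
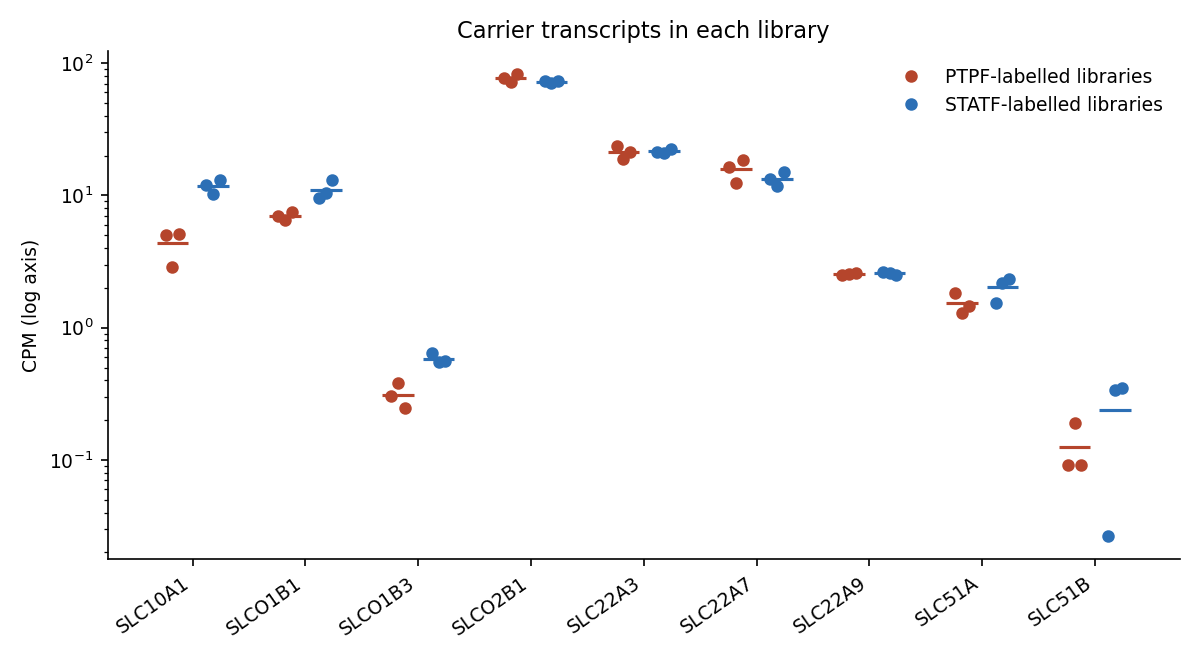
Level of each carrier in each library, in CPM on a log axis, with PTPF-labelled libraries on the left of each pair and STATF-labelled ones on the right; points are libraries and bars are means. The groups do not overlap in SLC10A1, SLCO1B1 and SLCO1B3, while SLCO2B1 lies between 70.5 and 82.8 CPM in all 6.

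SLC10A1 (ENSG00000100652, GRCh38 chromosome 14, 69775417 to 69797289, minus strand) encodes the sodium-taurocholate cotransporter, which is also the entry receptor of hepatitis B virus. It stood at 4.98, 2.89 and 5.15 CPM in the PTPF-labelled libraries, against 12.0, 10.3 and 13.1 CPM in the STATF-labelled libraries. The lowest STATF-labelled library was well above the highest PTPF-labelled one, and PTPF replicate 2 was the lowest of the 6. The raw counts behind these values were 164, 106 and 168 in the PTPF-labelled and 451, 428 and 492 in the STATF-labelled libraries. The log2 fold change was -1.45 (SE 0.17, 95% interval -1.83 to -1.08, edgeR adjusted p = 2.9e-05). Only 1.34% of all genes passed the test with a reduction of at least 2-fold. Without PTPF replicate 2 the log2 fold change was -1.21, the smallest in size of the 15 refits, and all 15 called the gene lower. No annotated exon base of SLC10A1 belongs to another gene, and no run of 50 bases of its transcript occurs in a transcript of another gene.

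In bulk RNA, fewer cells of a type and less RNA per cell cannot be told apart, so the hepatocyte markers are given beside SLC10A1. Of 18, 7 were lower and 3 higher in the PTPF-labelled libraries, so 55.6% were called, against 21.6% of all genes tested. Their summed level was 48560 to 56540 CPM in the PTPF-labelled and 43620 to 44740 CPM in the STATF-labelled libraries, a sum in which the secreted proteins SERPINA1 and FGB were higher and ALB lower. Biliary and progenitor markers summed to 329 to 363 CPM in the PTPF-labelled and 320 to 340 CPM in the STATF-labelled libraries. Of 9 tested, 3 were lower and 1 higher (44.4% called). KRT19, a keratin of bile duct cells, averaged 75.7 ± 6.40 CPM in the PTPF-labelled and 112.7 ± 10.3 CPM in the STATF-labelled libraries (SD, n = 3 each, edgeR adjusted p = 6.1e-07). SOX9 and MUC1 were also lower, with log2 fold changes of -0.40 and -0.50, and CD24 was higher with 0.62. MUC1 did not pass without STATF replicate 2 (edgeR adjusted p = 0.12). EPCAM had no count in any library. Mesenchymal, endothelial and immune markers summed to 80.6 to 85.5 CPM in the PTPF-labelled and 103 to 108 CPM in the STATF-labelled libraries. Of 7 tested, 2 were lower and 1 higher (42.9% called). KDR, the endothelial receptor for VEGF, averaged 35.8 ± 3.36 CPM in the PTPF-labelled and 57.6 ± 2.23 CPM in the STATF-labelled libraries (SD, n = 3 each, edgeR adjusted p = 7.0e-09), a gap close in size to that between the sums. The other endothelial markers listed were scarce, so KDR alone does not show endothelial cells. PECAM1 averaged 0.686 CPM in the PTPF-labelled and 1.07 CPM in the STATF-labelled libraries (edgeR adjusted p = 0.16). VWF had 0 to 8 counts per library, and CDH5 had 0 to 1. ACTA2, the smooth muscle actin, was lower with a log2 fold change of -0.35, and the monocyte marker CD14 higher with 0.80. The T cell marker CD3E had no count in any library, and the leukocyte marker PTPRC had 1 count over the 6 libraries together. The part of these markers in the carriers' differences was not tested.

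SLCO1B1 (ENSG00000134538, chromosome 12, 21131202 to 21239246, plus strand) encodes OATP1B1, an importer of statins and bilirubin conjugates. It stood at 7.01, 6.51 and 7.54 CPM in the PTPF-labelled libraries, against 9.60, 10.3 and 13.0 CPM in the STATF-labelled libraries. The groups did not overlap, and STATF replicate 3 stood highest. The log2 fold change was -0.64 (SE 0.11, 95% interval -0.87 to -0.41, edgeR adjusted p = 8.5e-05). It was -0.51 without STATF replicate 3 and still passed (adjusted p = 0.0033). Of its exon bases, 13.5% also belong to the readthrough gene AC022335.1, which had at most 2 counts in a library.

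SLCO1B3 (ENSG00000111700, chromosome 12, 20810702 to 20916911, plus strand) encodes OATP1B3, a close relative of OATP1B1 from the same gene cluster. It was scarce, with 10, 14 and 8 counts in the PTPF-labelled libraries, against 24, 23 and 21 counts in the STATF-labelled libraries. These are 0.303, 0.382 and 0.245 CPM in the PTPF-labelled and 0.640, 0.552 and 0.561 CPM in the STATF-labelled libraries, without overlap. The log2 fold change of -0.90 (SE 0.38, 95% interval -1.69 to -0.11) did not pass across all genes (edgeR adjusted p = 0.10, unadjusted p = 0.0275). The level is also uncertain because 54.5% of its exon bases belong to the readthrough gene AC011604.2 as well, which had 0 to 7 counts per library, and the sources used here do not say how shared reads were handled.

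The ratio of SLCO1B1 to SLCO1B3 was compared directly, on log2(CPM + 0.5). It was 3.22, 2.99 and 3.43 in the PTPF-labelled libraries, against 3.15, 3.37 and 3.66 in the STATF-labelled libraries. The groups overlapped, and the difference of -0.18 had a two-sided exact permutation p of 0.5, where 3 against 3 libraries cannot go below 0.1. With a pseudocount of 0.1 CPM the difference was 0.12. The data therefore do not resolve a difference between the changes of these neighbouring genes.

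Promoter windows are shown for the 3 carriers whose libraries did not overlap between the groups. They are RefSeq sequences (GRCh38.p14) from 250 bases before to 50 bases after the annotated start, 5′ to 3′ on the gene's strand, and lie at chr14:69797192-69797491 (minus strand), chr12:21130944-21131243 (plus) and chr12:20810455-20810754 (plus). Capitals mark matches to the motifs searched on both strands.
SLC10A1: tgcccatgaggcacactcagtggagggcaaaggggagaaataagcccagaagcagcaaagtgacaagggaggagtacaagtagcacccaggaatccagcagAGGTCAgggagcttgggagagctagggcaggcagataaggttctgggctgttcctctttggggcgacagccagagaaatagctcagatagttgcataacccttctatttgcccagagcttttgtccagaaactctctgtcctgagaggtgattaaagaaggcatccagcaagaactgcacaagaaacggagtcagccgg
SLCO1B1: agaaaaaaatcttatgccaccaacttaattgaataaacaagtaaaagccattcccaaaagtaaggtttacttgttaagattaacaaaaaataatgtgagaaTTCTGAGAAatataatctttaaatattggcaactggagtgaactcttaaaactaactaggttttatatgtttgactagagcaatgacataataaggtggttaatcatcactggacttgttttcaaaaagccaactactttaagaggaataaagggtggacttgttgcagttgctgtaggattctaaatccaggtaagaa
SLCO1B3: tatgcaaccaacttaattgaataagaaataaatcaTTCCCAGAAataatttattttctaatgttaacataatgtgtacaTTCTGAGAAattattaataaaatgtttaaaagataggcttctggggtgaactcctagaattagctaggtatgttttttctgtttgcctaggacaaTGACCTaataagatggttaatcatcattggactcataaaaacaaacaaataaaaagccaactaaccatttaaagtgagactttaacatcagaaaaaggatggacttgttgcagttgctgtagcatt
The SLCO1B1 and SLCO1B3 windows resemble each other, with 85.3% identical bases over 259 aligned positions, gaps left out.

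The motifs were TTCNNNGAA, the core of a STAT element, AGGTCA, a core bound by nuclear receptors, and an inverted repeat of AGGTCA with 1 base between its arms, the form bound by FXR. The inverted repeat contains AGGTCA, so these matches can overlap. A further motif, GTTAAT, a core bound by HNF1 factors, was planned but left out of the search. Its letters occur unmarked in both SLCO1B windows, and its share among all windows was not counted. Both SLCO1B windows hold the STAT core TTCTGAGAA, 149 bases before the start of SLCO1B1 and 171 bases before that of SLCO1B3, and SLCO1B3 has a second match. SLCO1B3 also holds AGGTCA on the opposite strand. The SLC10A1 window holds AGGTCA and no match to the STAT core. Of the other carriers with a window, SLC22A7 and SLC51B hold AGGTCA, and SLCO2B1 and SLC51A hold none of the 3 motifs. In all, 7 of the 9 carriers had a window in the table, and SLC22A3 and SLC22A9 had none. Of 35116 promoter windows of the same length, 7.66% hold TTCNNNGAA and 13.8% AGGTCA. The inverted repeat is in none of them, so its absence from the carriers' windows does not set them apart. These are matches of letters only, and binding was not measured.

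SLCO2B1 (ENSG00000137491, chromosome 11, 75100563 to 75206549, plus strand) encodes OATP2B1, an importer of steroid sulfates found in liver and gut. It had the highest CPM of the 9, with 77.2, 72.3 and 82.8 CPM in the PTPF-labelled libraries, against 73.8, 70.5 and 72.6 CPM in the STATF-labelled libraries. The groups overlapped. The log2 fold change was 0.10 (95% interval -0.02 to 0.22, edgeR adjusted p = 0.25), an interval that excludes a reduction of the size seen in SLC10A1 or SLCO1B1.

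SLC22A3 (ENSG00000146477, chromosome 6, 160348268 to 160452581, plus strand) encodes OCT3, a carrier of monoamines and other organic cations. It stood at 23.7, 19.0 and 21.2 CPM in the PTPF-labelled libraries, against 21.4, 20.9 and 22.6 CPM in the STATF-labelled libraries. The STATF-labelled values lay inside the range of the PTPF-labelled ones, and the log2 fold change was -0.02 (95% interval -0.18 to 0.14, edgeR adjusted p = 0.89).

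SLC22A7 (ENSG00000137204, chromosome 6, 43295694 to 43305538, plus strand) encodes OAT2, which carries small organic anions. It stood at 16.4, 12.4 and 18.4 CPM in the PTPF-labelled libraries, against 13.3, 11.7 and 15.1 CPM in the STATF-labelled libraries. The groups overlapped through PTPF replicate 2. The log2 fold change was 0.23 (95% interval -0.06 to 0.52, edgeR adjusted p = 0.27). Without PTPF replicate 2 it was 0.39 and passed (edgeR adjusted p = 0.0028). PTPF replicate 2 was also the lowest PTPF-labelled library in SLC10A1, SLCO1B1, SLCO2B1, SLC22A3 and SLC51A, but not in SLCO1B3, SLC22A9 or SLC51B.

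SLC22A9 (ENSG00000149742, chromosome 11, 63369789 to 63410294, plus strand) encodes OAT7, a liver carrier of sulfated steroids. It was the most even of the 9, with 2.49, 2.53 and 2.57 CPM in the PTPF-labelled libraries, against 2.61, 2.59 and 2.51 CPM in the STATF-labelled libraries. These values rest on 82 to 108 counts per library, and whether SLC22A9 is steadier than the other carriers was not tested. Its log2 fold change was -0.02 (95% interval -0.36 to 0.32, edgeR adjusted p = 0.95).

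The 2 subunits of the bile acid exporter were scarce. SLC51A (ENSG00000163959, chromosome 3, 196211487 to 196243178, plus strand) stood at 1.82, 1.28 and 1.47 CPM in the PTPF-labelled libraries, against 1.55, 2.19 and 2.32 CPM in the STATF-labelled libraries. The groups overlapped through STATF replicate 1, and the log2 fold change was -0.41 (95% interval -0.85 to 0.03, edgeR adjusted p = 0.19). SLC51B (ENSG00000186198, chromosome 15, 65045370 to 65053396, plus strand) had 3, 7 and 3 counts in the PTPF-labelled libraries, against 1, 14 and 13 counts in the STATF-labelled libraries. Its STATF-labelled libraries spanned the whole range, so the groups overlapped. The summed counts, 13 in the PTPF-labelled and 28 in the STATF-labelled libraries, gave a depth-adjusted ratio of 0.529 with an exact 95% counting interval of 0.252 to 1.06. Without a filter its edgeR log2 fold change was -0.90 (adjusted p = 0.55). A difference was not detectable at this depth.

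The subunits work as a pair, so their ratio was compared as well, on log2(CPM + 0.5). The log2 ratio of SLC51A to SLC51B was 1.97, 1.37 and 1.74 in the PTPF-labelled libraries, against 1.96, 1.68 and 1.74 in the STATF-labelled libraries. The difference was -0.10 (two-sided exact permutation p = 0.8), and its sign depended on the pseudocount, at 0.027 with 0.1 CPM. Of the exon bases, 7.35% of SLC51A lie in PCYT1A and 6.38% of SLC51B in RASL12, both on the opposite strand. PCYT1A had 1642 to 2361 counts per library, so part of the SLC51A counts may be its reads if strand was ignored in counting, which the sources used here do not say.

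**Figure D2:**
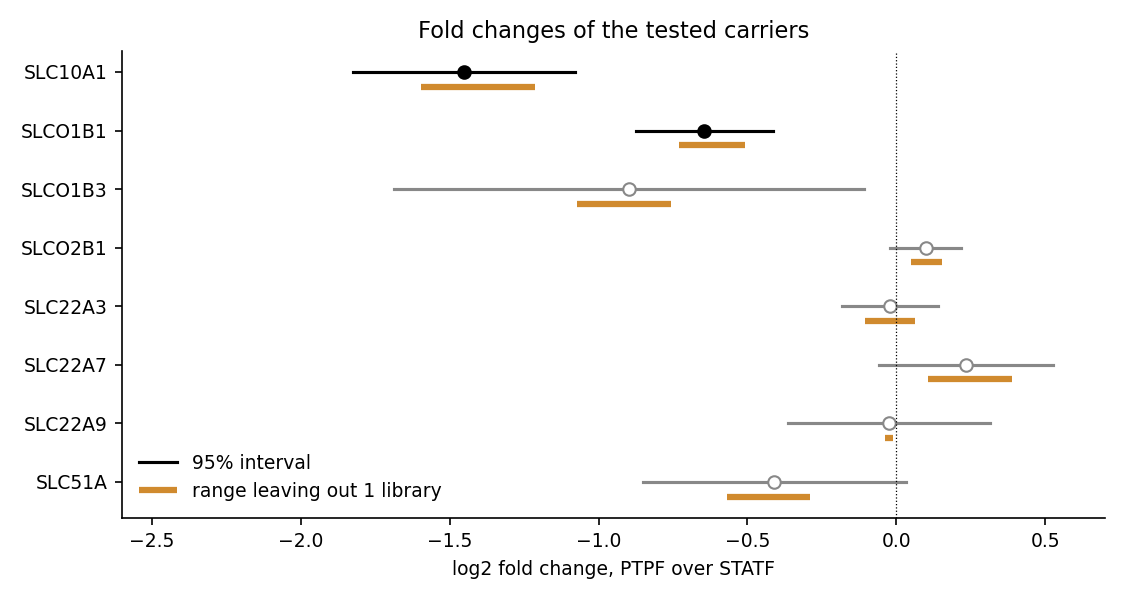
Log2 fold change of the 8 tested carriers, PTPF over STATF, with points for the fit on all 6 libraries (filled where the adjusted p is under 0.05), thin lines for its 95% interval and thick bars for the range over 6 refits without 1 library each. SLC10A1 runs from -1.60 to -1.21 and SLCO1B1 from -0.73 to -0.51, while SLC22A3 crosses 0.

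Levels of different genes were set side by side per kilobase of the deposited gene length (RPKM). In PTPF-labelled libraries the order by mean RPKM was SLCO2B1 at 7.48 ± 0.508, SLC22A3 at 6.36 ± 0.712, SLC22A7 at 4.46 ± 0.869, SLCO1B1 at 3.15 ± 0.229 and SLC10A1 at 2.12 ± 0.614 (SD, n = 3). SLC22A9 followed at 1.07 ± 0.018, and SLC51A, SLC51B and SLCO1B3 were at 0.344 RPKM or less in each of these libraries. Here SLCO2B1 and SLC22A3 overlapped in range, as did SLC51B and SLCO1B3. In STATF-labelled libraries SLC10A1 followed SLC22A3 at 5.77 ± 0.706 RPKM and SLCO1B1 came next at 4.92 ± 0.792 RPKM, ahead of SLC22A7 at 3.79 ± 0.476 RPKM (SD, n = 3). There SLC10A1 overlapped in range with both SLC22A3 and SLCO1B1, and SLC51B with both SLC51A and SLCO1B3. The deposited length joins all annotated transcripts of a gene, 19 for SLCO2B1. With the longest single transcript as length, SLCO2B1 was at 13.2 RPKM in the PTPF-labelled and 12.3 RPKM in the STATF-labelled libraries. In the STATF-labelled libraries SLC22A7 then stood before SLCO1B1, at 5.23 RPKM against 4.92 RPKM, and SLC51A before SLC22A9, at 1.38 RPKM against 1.10 RPKM.

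The make-up of the 9 carriers' summed RPKM differed accordingly. The shares given use the deposited lengths and depend on that choice. With the longest transcript as length, SLCO2B1 stood at 13.2 RPKM in the PTPF-labelled libraries, against 7.48 RPKM with the deposited length. SLC10A1 made up 6.37% to 9.31% of the sum in the PTPF-labelled and 17.9% to 20.2% in the STATF-labelled libraries. SLCO1B1 made up 11.9% to 13.2% in the PTPF-labelled and 14.8% to 18.01% in the STATF-labelled libraries. SLCO2B1 made up 28.3% to 31.6% in the PTPF-labelled and 21.7% to 24.5% in the STATF-labelled libraries, although its own level did not pass the test, since shares must add up to a fixed whole. The sum itself was 25.1 ± 2.64 RPKM in the PTPF-labelled and 29.8 ± 2.21 RPKM in the STATF-labelled libraries (SD, n = 3 each).

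**Figure D3:**
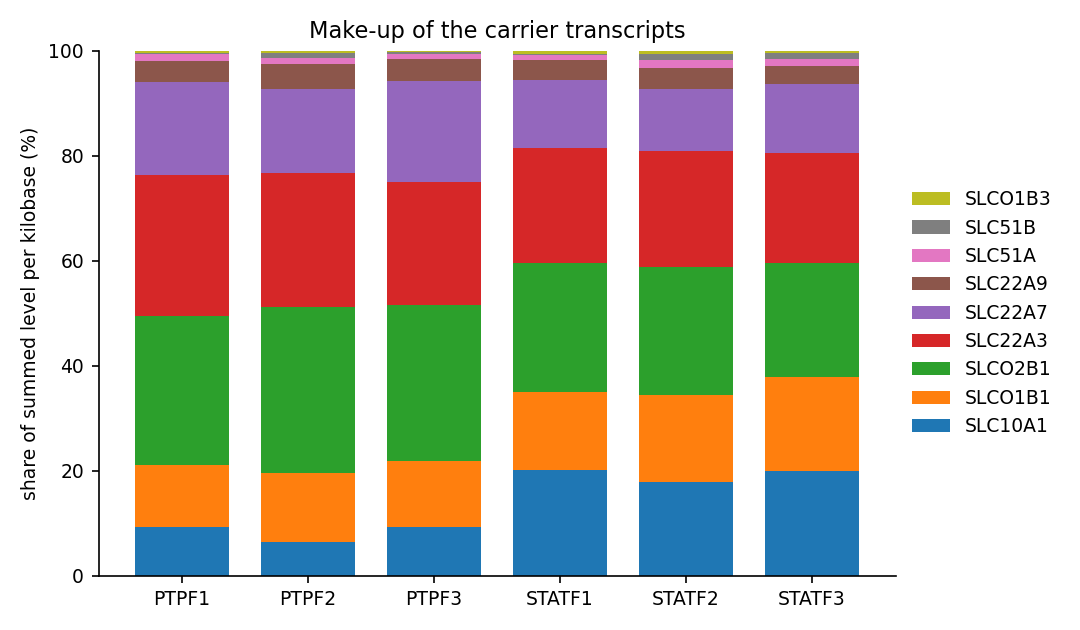
Share of each carrier in the summed level per kilobase of deposited gene length of the 9 carriers, in percent. Stacked bars stand for each library, with the PTPF-labelled ones on the left. SLC10A1, at the bottom, takes at most 9.31% in the PTPF-labelled and at least 17.9% in the STATF-labelled libraries.

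SLC10A1 was the only carrier past the threshold with a change of at least 2-fold, so genes with a like profile were sought for it. The measure was the root-mean-square distance between log2(CPM + 0.5) profiles over the 6 libraries, each centred on its own mean, among 11765 protein-coding genes. The nearest was CYP3A4, the main drug-oxidising cytochrome of the liver, at a distance of 0.16. It stood at 138, 119 and 155 CPM in the PTPF-labelled libraries, against 362, 280 and 399 CPM in the STATF-labelled libraries, and was lowest in replicate 2 of either label, as SLC10A1 was. CSAG3 (0.16) and the cytochrome CYP4B1 (0.18) came next. Of the runs of 50 bases in CSAG3 transcripts, 95.6% also occur in another gene, mainly CSAG2, so its counts are uncertain. The share was 7.99% for CYP3A4, mainly with CYP3A7, and 0% for CYP4B1.

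As among the 9, most of the other carriers of the same families that were tested did not pass. The share called was 25% among the other SLC22 genes and 25% among the other SLCO, SLC10 and SLC47 genes. It was also 25% among the tested members of the 9, and 21.6% over all genes tested. Of 20 other SLC22 genes, 12 were tested, of which 1 was higher and 2 were lower in the PTPF-labelled libraries, and their median log2 fold change was 0.05. SLC22A23, an orphan member of the family, was higher at 42.5 ± 3.38 CPM in the PTPF-labelled and 32.3 ± 1.43 CPM in the STATF-labelled libraries (SD, n = 3 each). SLC22A5, the carnitine carrier (log2 fold change -0.20, edgeR adjusted p = 0.021), and SLC22A18 (-0.19, adjusted p = 0.018) were lower. Neither call held throughout when 1 library was left out. SLC22A5 did not pass without PTPF replicate 3 or STATF replicate 1 or 2 (largest adjusted p = 0.14), nor SLC22A18 without PTPF replicate 2 or STATF replicate 1 or 3 (largest adjusted p = 0.14).

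Of 17 other SLCO, SLC10 and SLC47 genes, 12 were tested, with 2 higher, 1 lower and a median of -0.12. The proton-coupled exporter of organic cations SLC47A2 was higher, with a log2 fold change of 0.33 and an edgeR adjusted p of 5.2e-04. SLC10A7 was higher as well (0.28), but did not pass without STATF replicate 2 (edgeR adjusted p = 0.063). SLCO3A1 was lower, at 15.3 ± 0.274 CPM in the PTPF-labelled and 19.2 ± 1.01 CPM in the STATF-labelled libraries (SD, n = 3 each).

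ATP-driven exporters, which move on what the importers bring in, changed in both directions. Of 14, 5 were lower and 3 higher, and the list's median was -0.06 in log2 fold change. The share called was 57.1%, against 21.6% of all genes tested. Whether this or another list exceeds the share of all genes was not tested. The efflux pump ABCG2 stood at 6.94 ± 0.261 CPM in the PTPF-labelled and 10.6 ± 0.620 CPM in the STATF-labelled libraries (SD, n = 3 each). ABCC2, the canalicular pump for conjugates, stood at 219 ± 17.8 CPM in the PTPF-labelled and 273 ± 3.58 CPM in the STATF-labelled libraries (SD, n = 3 each). TMEM30A, a partner of lipid flippases, was higher (log2 fold change 0.30, edgeR adjusted p = 1.6e-04). The bile salt export pump ABCB11, named after its values were seen, was scarce, at 1.25 ± 0.486 CPM in the PTPF-labelled and 0.809 ± 0.155 CPM in the STATF-labelled libraries (SD, n = 3 each, edgeR adjusted p = 0.15).

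Of 23 tested genes for transcription factors and signals that act on transporter genes, 3 were higher and 4 lower, with a median of -0.04. The share called was 30.4%, against 21.6% of all genes tested. The retinoic acid receptor RARA stood at 25.9 ± 0.689 CPM in the PTPF-labelled and 16.03 ± 0.158 CPM in the STATF-labelled libraries (SD, n = 3 each). The bile acid receptor NR1H4 was higher, with a log2 fold change of 0.50 (edgeR adjusted p = 1.4e-06), and the coactivator PPARGC1A lower, with -0.47 (adjusted p = 2.6e-06).

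In bile acid synthesis and conjugation, 17 genes were tested, of which 3 were higher and 1 lower (median -0.02). The share called was 23.5%, close to the 21.6% of all genes tested. The conjugating enzyme BAAT, which joins bile acids to glycine or taurine, was lower at 79.6 ± 4.97 CPM in the PTPF-labelled and 155 ± 14.7 CPM in the STATF-labelled libraries (SD, n = 3 each). SCP2 (log2 fold change 0.25) and SLC27A2 (0.21) were higher. SCP2 did not pass without PTPF replicate 1 or 3 or STATF replicate 1 or 2, nor SLC27A2 without PTPF replicate 1 or STATF replicate 1 or 3, with edgeR adjusted p up to 0.070 and 0.064. Scaffold and trafficking genes numbered 11, of which 4 were lower and 1 higher (median -0.09, 45.45% called). ATP1B1, the beta subunit of the sodium pump whose gradient drives SLC10A1, was lower at 76.5 ± 2.06 CPM in the PTPF-labelled and 136 ± 7.04 CPM in the STATF-labelled libraries (SD, n = 3 each). PDZK1, a scaffold that anchors carriers in the membrane, was lower with a log2 fold change of -0.55 (edgeR adjusted p = 9.1e-07), and ezrin (EZR) with -0.26.

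**Figure D4:**
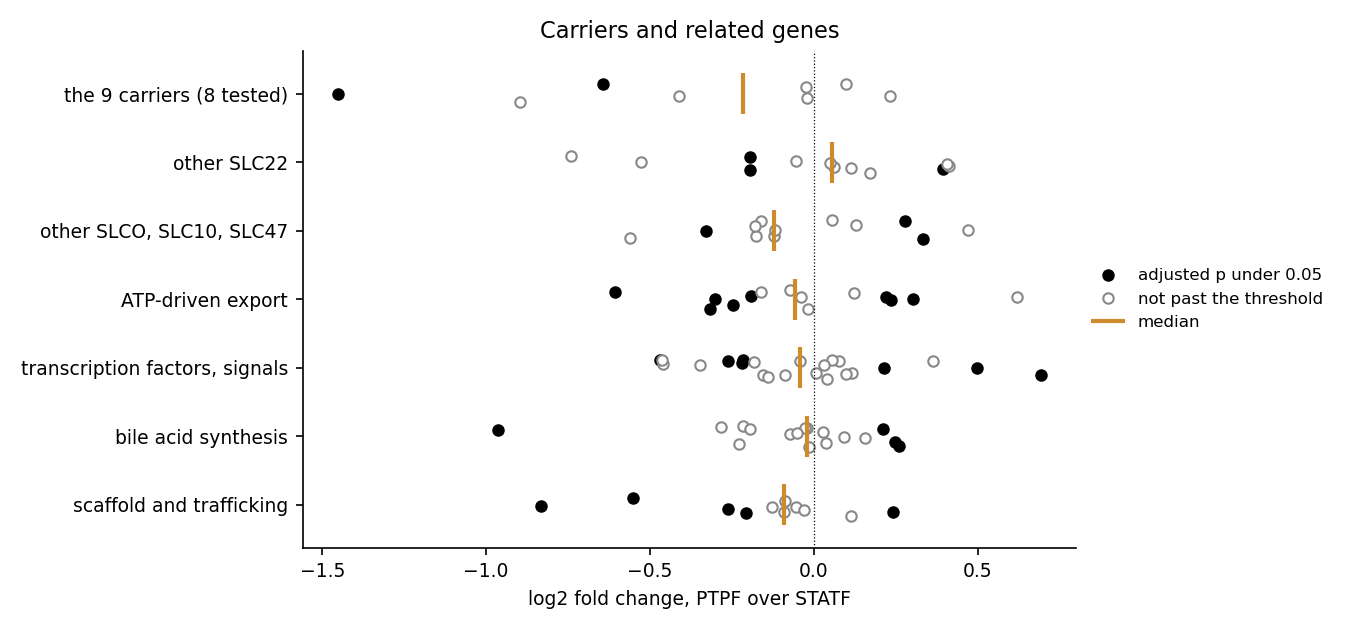
Log2 fold changes, PTPF over STATF, of the 8 tested carriers and of the tested genes of 6 related lists; filled points passed an adjusted p of 0.05, open points did not, and the vertical bars are medians. List medians lie between -0.22 and 0.05, and SLC10A1 at -1.45 is the lowest point shown.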

How the data were processed

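Polyadenylated RNA of 6 HepaRG samples was sequenced. The authors deposited raw read counts per gene in 1 table, 1 column per library, with no normalization. The submitters' processing notes name GRCh38 and the tools featureCounts 1.5.0-p3, HISAT2 2.0.5 and CASAVA 1.8. Their annotation release and their settings for strand and multi-mapping reads were not given in the sources used here. All 58735 genes have the same position in GENCODE release 29, which gave the exon overlaps. The deposited gene length, an other unit than the counts, served for RPKM.

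Libraries were grouped by title. After filterByExpr, 17844 genes remained. TMM factors were 0.953 to 1.03. The test was the quasi-likelihood test of edgeR 4.0.16 in R 4.3.3, with robust glmQLFit and group as the sole term. P-values were adjusted by Benjamini-Hochberg over all genes tested, with a threshold of 0.05. SEs were derived from the fold change and the F statistic. The limit that 0 counts allow, 3 counts, is 0.0720 to 0.0919 CPM; this limit and the counting intervals cover counting error only. Exact tests used scipy 1.17.1.

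The members, lists and tests were chosen with earlier results of these data known. The text names STAT3, PTPRD, the 9 carriers, the 3 genes per list with the smallest adjusted p past the threshold, and the 3 genes nearest in profile to carriers called with a change of at least 2-fold. Others are marked, and marker lists are given mainly as counts.

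On simulated data (17550 genes, 200 changed), edgeR recovered 82% of 50 genes changed 1.5-fold and 94% of 50 changed 2-fold, and 8.78% of calls were false. Alternatives were RLE, upper-quartile and library-total scaling, limma-voom (limma 3.58.1), DESeq2 1.42.0, a minimum of 50 counts in 3 libraries or no filter, a replicate block, an adjusted p of 0.01, leaving out mitochondrial genes and leaving out each library in turn. The longest transcript as gene length was added after the data were seen. Within groups, every pair of libraries differed by more than sampling noise, with a chi-square of 4.01 to 10.9 per degree of freedom.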

Additional observations from a re-analysis of the deposited data

How the results depend on the processing

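SLC10A1 and SLCO1B1 were called lower in all 15 refits and at an adjusted p of 0.01. SLCO1B3 was lower without a call in the 14 refits that kept it, at -1.07 to -0.76, and DESeq2 gave it no adjusted p. SLC22A7 was called higher, making 1 carrier higher where the main result has 0, without PTPF replicate 2 and with the replicate block (log2 fold change 0.23, edgeR adjusted p = 0.044). SLC22A3, called in no refit, ran from -0.11 to 0.064 when 1 library was left out, above 0 without PTPF replicate 2 or STATF replicate 3. The SLC51A to SLC51B difference changed sign with a pseudocount of 0.1 CPM (0.027) and without PTPF replicate 2 (-0.24 to 0.061 over the libraries left out), and that of SLCO1B1 to SLCO1B3 with 0.1 CPM (0.12). The cause of these changes was not tested. Over all genes, 3863 passed, 1801 of them higher. An adjusted p of 0.01 left 2551 and 1137 by construction. Library totals gave 1164 higher and 28.1% of calls, against 46.6%, with the median of all genes at -0.06. Deviations of same-numbered libraries correlated at 0.10, 0.14 and -0.01, so the numbers were not taken as pairs. The block gave 4145 calls. PTPF replicate 3 did not correlate best with its own number.

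Counts in the related lists moved by more than 1.5 times in some refits. Lower calls among other SLC22 genes were 0 without STATF replicate 1 and 1 without PTPF replicate 2 or 3 or STATF replicate 2 or 3. Among exporters 3 were lower without PTPF replicate 1 or 2 or STATF replicate 1 or 3. Among transcription factors 2 were lower without STATF replicate 1, and 7 with library totals or no filter. In bile acid synthesis 0 were higher without PTPF replicate 1 or STATF replicate 1, 1 without PTPF replicate 3 or STATF replicate 2 or with library totals, and 2 were lower without PTPF replicate 3. Among other SLCO, SLC10 and SLC47 genes 1 was higher without STATF replicate 2, and library totals gave 1 higher and 3 lower. Library totals made 11 hepatocyte markers lower. SLCO1B3 and SLC51B rest on 24 counts or fewer per library, and power at such counts was not tested.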

Other observations

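Some genes near the carriers had too few counts for the test and were picked after their values were seen. SLC22A8, an organic anion transporter best known from kidney, had 4, 1 and 2 counts in the PTPF-labelled libraries, against 7, 12 and 11 counts in the STATF-labelled libraries. NR0B2, the repressor SHP that bile acids induce through NR1H4, had 1, 3 and 4 counts in the PTPF-labelled libraries, against 13, 6 and 20 counts in the STATF-labelled libraries. In both genes the groups did not overlap, with the PTPF-labelled libraries lower. Among the genes that could be tested this was so in 18.4%, a share that leaves out genes with so few counts. The scarce carrier SLC10A6 went the other way without overlap. It stood at 0.0910, 0.0818 and 0.0613 CPM in the PTPF-labelled libraries, against 0.0533, 0.0240 and 0.0267 CPM in the STATF-labelled libraries. FGF19, another gene induced through NR1H4, and the ileal bile acid importer SLC10A2 had no count in any library. CYP7A1, the rate-limiting enzyme of bile acid synthesis, stood at 1.03 ± 0.327 CPM in the PTPF-labelled and 1.19 ± 0.267 CPM in the STATF-labelled libraries (SD, n = 3 each, edgeR adjusted p = 0.65).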
